A study of Homo sapiens with 48 samples.

Results

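The genes described here are 8 genes of cholesterol efflux and of the liver X receptor, ABCA1, ABCG1, NR1H3, MYLIP, APOE, APOC1, PLTP and LPCAT3, measured in a human macrophage line exposed to carbon nanomaterials. They were taken by gene symbol from the 20399 genes that had a named feature, and all 8 were measured, by 9 features. ABCA1 had 2 features, of which the one with the higher mean stood for it, and the others had 1 each. In RefSeq's GRCh38.p14 coordinates ABCA1 spans chr9:104781006-104928155, ABCG1 chr21:42199689-42297244, NR1H3 chr11:47248300-47269033, MYLIP chr6:16129086-16163887 and LPCAT3 chr12:6976185-7018476. APOE (chr19:44905796-44909393) and APOC1 (chr19:44914325-44919346) are neighbours, and PLTP spans chr20:45898620-45912155. No filter on low values was applied, so every member entered every test.

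RNA came from THP-1, an established human monocytic leukaemia line, which PMA, a phorbol ester, had turned into macrophage-like cells before any exposure. Exposed wells received 100 µg of a material in 1 ml of medium for 6 or 24 h. The labels call the materials rCNT, tCNT, Baytube, Graphite, Fullerene and SES, and there were 3 samples for every material at either time, 12 groups. The 2 control groups, labelled negCont, had 6 samples at 6 h and 6 at 24 h, which made 48 in all. Each sample also has a code with a letter, A, B or C. Every material has 1 code, whereas each control group holds the codes 1 and 6, which were pooled. The samples were labelled in 3 dyes, and the labels place them on 20 arrays of 5 slides. Nothing in the labels says that samples of a group came from separate cultures, so p-values measure the spread between samples, which may be technical. All cells were of 1 line and were treated with PMA, the controls included. In bulk RNA, fewer cells of a kind and less RNA per cell cannot be told apart.

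Macrophages that take up lipid or debris hold more cholesterol than they can break down and have to export it. ABCA1 and ABCG1 are the membrane transporters that pass cholesterol to lipid-poor apolipoprotein and to mature HDL particles. NR1H3 encodes LXRα, a nuclear receptor that is switched on by oxysterols, pairs with RXR and raises transcription of the efflux genes. MYLIP, also called IDOL, is an LXR target and a ubiquitin ligase that limits lipoprotein uptake. APOE and APOC1 are neighbouring apolipoprotein genes, PLTP moves phospholipid between lipoproteins, and LPCAT3 remodels membrane phospholipids; LXR is known to act on each of them. Sterol synthesis genes are driven by SREBP2 and are low when cell cholesterol is high, which is the state in which LXR is active.

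The promoter of ABCA1 carries the site through which LXR is known to act, and it is shown as background. The 100 bases before the transcription start, from RefSeq (GRCh38.p14, chr9:104928156-104928255, minus strand), are given 5′ to 3′ with the element in capitals.
ABCA1 promoter: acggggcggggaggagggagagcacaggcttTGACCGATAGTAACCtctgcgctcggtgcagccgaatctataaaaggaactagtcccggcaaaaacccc
Read on the opposite strand, the capitals spell GGTTACTATCGGTCA, a direct repeat of the kind that LXR and RXR are known to bind together, and they lie from -69 to -55 relative to the start. The looser pattern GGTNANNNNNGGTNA, searched on both strands of the 250 bases before each start, was found in 187 of 35116 windows, 0.533% of them. Among the 7 members with a window in the table, ABCA1 alone held it, and 1 of 18 sterol synthesis genes with a window did. A single repeat, GGTCA, which lies inside the longer pattern, was found in 4 of the 7 (ABCA1, NR1H3, APOE and APOC1) and in 32.6% of all windows, so it did not set these genes apart. A match is a description of letters and not a measured binding site.

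The values are deposited log2 values between 6.05 and 16.00, with sample medians from 7.68 to 7.70, so the samples had near identical distributions. Levels of different features are not comparable with each other and rank no genes. Of the 7 macrophage markers, CD68 had a mean of 13.74, CSF1R of 15.29 and MMP9 of 15.71, in the upper part of the scale. Levels of the macrophage markers CD14, ITGAM, MSR1 and CD163 and of the epithelial genes EPCAM and KRT8 are not given here. The hepatocyte genes ALB and TTR stood at 6.86 and 6.98 and the adipocyte genes ADIPOQ and PLIN1 at 7.14 and 6.79, near the lower end. The lymphocyte gene CD79A stood at 10.64, beside CD3E at 7.28 and MS4A1 at 6.86, and the fibroblast gene PDGFRA at 9.32, beside COL1A1 at 6.83. As an array, the data give no depth, and the number of samples limits the precision.

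Samples of 1 labelled group did not resemble each other, which bears on every group comparison. Columns 20 or 40 apart in the table, which form 8 sets of 3 and 12 sets of 2, resembled each other far more. The sample most correlated with a given sample over all features was in the same column set for 34 of 48 samples and in the same labelled group for 3 of 48. Between the 20 column sets, 92.0% of all genes differed (limma moderated F test, adjusted p under 0.05), against 0.0196% of genes between the 14 labelled groups. Samples that share a labelled array did not show this likeness. The estimated correlation within a block was -0.022 for the labelled arrays and 0.72 for the column sets (limma). Whether labels and columns are out of step was not tested. A group name below therefore means samples so labelled, and no sample was moved to another group.

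The place of a feature on the array also moved with the values of some members. Features were laid out in 532 rows of 85, a layout inferred from the values, and the neighbourhood of a feature was the median deviation of the bright features in the 11 by 11 spots around it from their own medians over samples. A neighbourhood below -1 on the log2 scale is called local loss. It affected 2.03% of all values. NR1H3 lay in such a neighbourhood in 18 of 48 samples, ABCG1 in 9 and MYLIP in 4. ABCA1 (the feature used), APOE, APOC1, PLTP and LPCAT3 lay in one in 0 samples. The surface of the array varied with an SD above 0.2 in 6 samples, 1 of them a control (6 h replicate 5) and the others replicate 1 of Graphite 24 h, tCNT 24 h and Fullerene 6 h and replicate 3 of Baytube 6 h and tCNT 6 h.

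ABCA1, the transporter that starts HDL formation, ranged from 9.21 to 13.01 over the samples on the log2 scale, with a mean of 11.21 ± 1.03 (SD, n = 48). In the 6 h controls the lowest, median and highest values were 9.27, 10.90 and 12.69, and in the 24 h controls they were 10.42, 10.91 and 11.97. The 6 h controls differed among themselves by up to 3.43 log2 units, and they covered most of the range of the exposed samples.
At 6 h the 3 values of ABCA1 were 12.31, 9.46 and 12.66 in rCNT, 11.91, 13.01 and 11.77 in tCNT, and 11.99, 12.17 and 11.23 in Baytube. They were 9.21, 9.52 and 11.54 in Graphite, 12.32, 12.29 and 9.62 in Fullerene, and 11.54, 9.80 and 11.15 in SES. The tCNT and Baytube samples were all above the median of their controls, as were 2 of 3 samples of rCNT, Fullerene and SES and 1 of 3 of Graphite. Every group overlapped the controls.
At 24 h the values were 11.20, 11.93 and 12.25 in rCNT, 10.13, 11.12 and 11.73 in tCNT, and 11.80, 11.46 and 11.96 in Baytube. They were 9.56, 12.15 and 10.41 in Graphite, 10.29, 9.80 and 12.58 in Fullerene, and 11.85, 10.98 and 10.59 in SES. Here too each group overlapped the controls, and Baytube was the tightest, with an SD of 0.26 against 0.65 in the controls.

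Ordered by group mean, ABCA1 ran from Graphite 6 h at 10.09 ± 1.27 (SD, n = 3) to tCNT 6 h at 12.23 ± 0.68 (SD, n = 3). The largest step between neighbours in that order was 0.62, between Graphite 6 h and Graphite 24 h at 10.71 ± 1.32 (SD, n = 3), which is less than either SD. The fitted difference between material and control was largest for tCNT 6 h, at 1.21 ± 0.73 (SE; limma adjusted p = 0.818), and lowest for Graphite 6 h, at -0.93 ± 0.73 (SE; limma adjusted p = 1.00). The 95% intervals of these differences ran from -0.28 to 2.69 and from -2.42 to 0.55, so a rise and a fall were both within the error at this number of samples. The other feature of ABCA1 had a lower mean, 7.94 ± 0.55 (SD, n = 48), and correlated with the first with r = 0.69 (rho = 0.66) over the 48 samples.

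**Figure D1:**
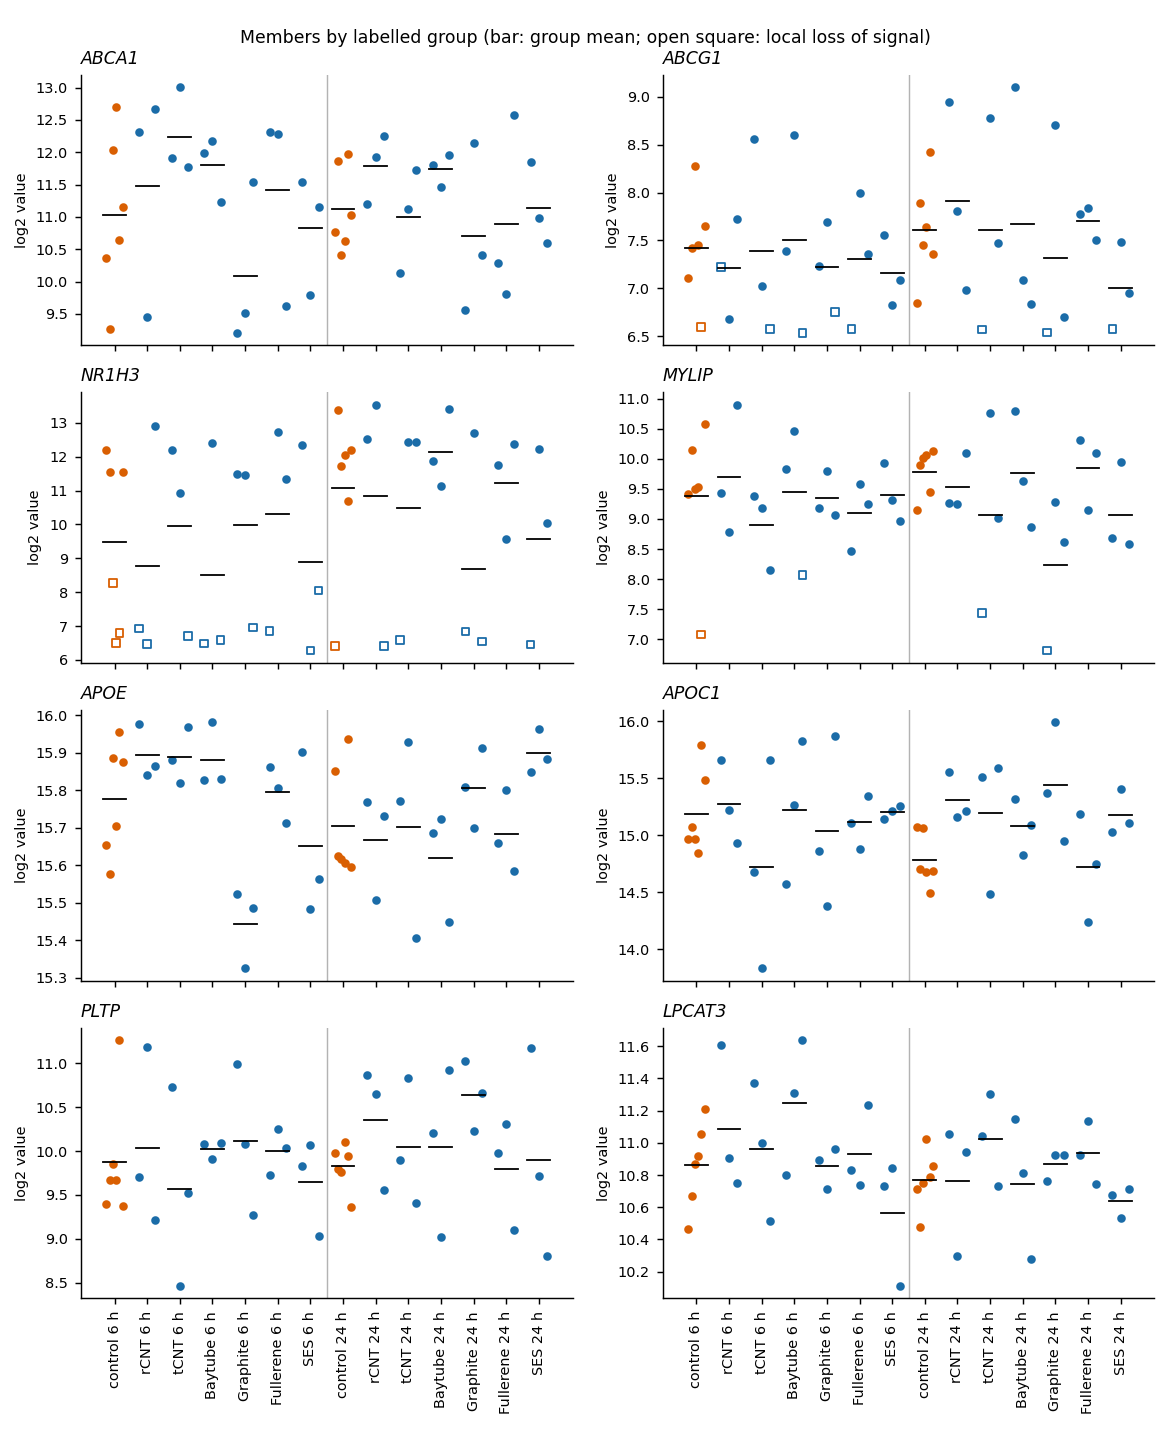
Deposited log2 values of the 8 genes (y axis) in each of the 48 samples, by labelled group (x axis, 6 h to the left and 24 h to the right of the grey line); orange points are controls, blue points exposed samples, black bars group means, and open squares samples with local loss of signal on the array. For NR1H3 the 18 open squares lie between 6.28 and 8.27, below all 30 filled points.

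NR1H3, the receptor itself, had the widest spread of the 8 genes, a mean of 10.03 ± 2.66 (SD, n = 48), and its values fell into separate ranges by place on the array. In the 18 samples with local loss they lay between 6.28 and 8.27 with a median of 6.60, and in the 30 samples without it between 9.56 and 13.54 with a median of 12.20. The medians of its neighbourhood were -3.59 and 0.66 in these samples, and the ranges did not overlap. The correlation of NR1H3 with its neighbourhood over the 48 samples was 0.95, a value reached by 1.35% of all genes, against a median of 0.44 over all genes. Without the 18 samples the SD fell to 0.91. In the 6 h controls 3 of 6 samples were affected and in the 24 h controls 1 of 6, so group means of NR1H3 moved with the number of affected samples in a group.

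ABCG1, the transporter that feeds mature HDL, had a low mean of 7.44 ± 0.70 (SD, n = 48), near the lower end of the scale, where folds are compressed. It lay between 6.54 and 7.22 in the 9 samples with local loss and between 6.68 and 9.10 in the other 39. MYLIP, which limits lipoprotein uptake, had a mean of 9.36 ± 0.88 (SD, n = 48), and lay between 6.81 and 8.07 in 4 affected samples and between 8.15 and 10.90 in the other 44. Its correlation with its neighbourhood was 0.89 over the 48 samples and still 0.80 over the 44, so MYLIP moved with its place on the array beyond the strongest losses. For ABCG1 these values were 0.64 over 48 and 0.51 over 39 samples, and for ABCA1 0.38 over 48.

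**Figure D2:**
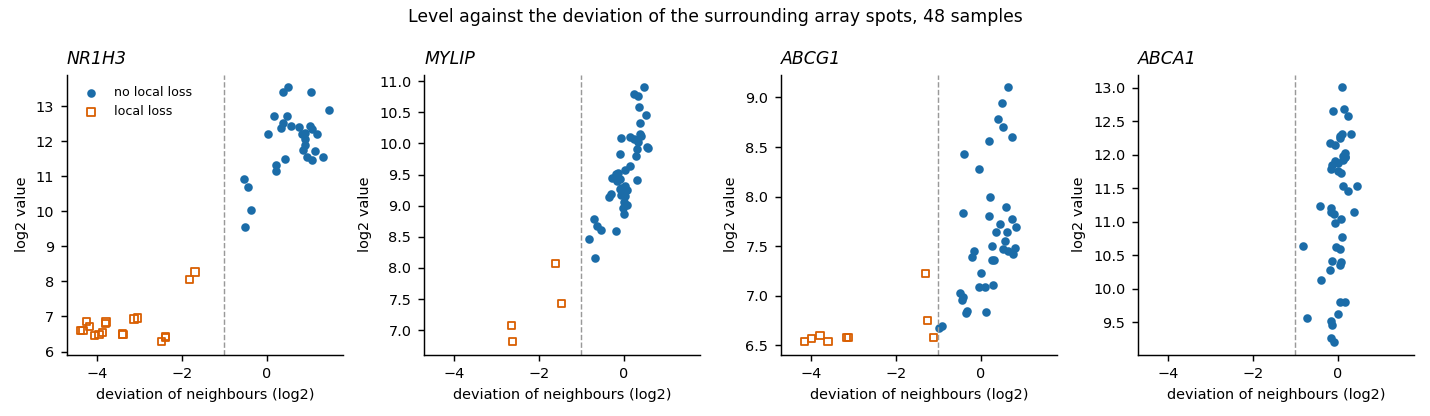
Log2 value of 4 of the genes (y axis) against the median deviation of the surrounding array spots (x axis, log2) in 48 samples; the dashed line marks -1, and orange open squares to its left are values with local loss. NR1H3 falls into 2 clouds, with 18 samples to the left of the line, whereas no ABCA1 value lies there.

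The secreted carriers stood at the top of the scale. APOE, the main apolipoprotein that macrophages secrete, had a mean of 15.74 ± 0.17 (SD, n = 48), and 9 of its values were within 0.1 of the highest value in the table, so a further rise could not be read there. APOC1, its neighbour on chromosome 19, had a mean of 15.09 ± 0.44 (SD, n = 48) with 1 value that close. The levels of the neighbours had r = 0.10 over the 48 samples, given without a test. PLTP had a mean of 9.97 ± 0.66 (SD, n = 48) and LPCAT3 of 10.87 ± 0.31 (SD, n = 48), the smallest spread after APOE.

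The comparison of each material with the control of its time asks whether exposure changed these genes. It did not call any of the 8 members for any of the 12 groups: in 96 tests the lowest adjusted p was 0.232 (limma, Benjamini-Hochberg over 20399 genes). The share of all genes called was 0.446% for Fullerene 6 h, 91 genes, and 0 for the other 11 contrasts, so a count of 0 members was near the background. Over the 12 contrasts together the 91 genes are 0.446% of all genes. At an unadjusted p under 0.05, 3 of the 96 member tests passed, all in samples labelled Graphite. The contrasts for Graphite called 1.94% of all genes at 6 h and 15.7% at 24 h at that level. At 6 h SES had 0.677%, Fullerene 11.2%, Baytube 0.941%, tCNT 6.27% and rCNT 2.31%. At 24 h SES had 2.97%, Fullerene 0.613%, Baytube 4.69%, tCNT 2.19% and rCNT 4.5%. Over the 12 contrasts 38.3% of all genes passed at least once, and 3 of the 8 members did. The 12 contrasts share control samples within each time.

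APOE had the lowest unadjusted p of the 3. Its values were 15.52, 15.33 and 15.49 in Graphite 6 h, and the lowest, median and highest in the 6 h controls were 15.58, 15.79 and 15.96. The 3 exposed values were below all 6 control values, and the share of all genes so separated was not counted. The log2 fold change was -0.33 ± 0.11 (SE; limma unadjusted p = 0.00563, adjusted p = 1.00). CD14, a marker of the macrophages themselves, stood at -1.70 ± 0.69 in the same contrast (SE; limma adjusted p = 1.00), and its part in the APOE value was not tested. Of the 7 macrophage markers 5 lay above 0 there, with a median of 0.09, so CD14 did not stand for the list. At 24 h the Graphite values of APOE were 15.81, 15.70 and 15.91, and the difference between the 24 h and 6 h responses was 0.43 ± 0.16 (SE; limma adjusted p = 0.534).

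MYLIP measured 6.81, 9.28 and 8.62 in Graphite 24 h, where the controls had a lowest value of 9.15, a median of 9.96 and a highest value of 10.12. Of the Graphite samples 2 were below every control, a separation that was not counted over all genes. The fold change was -1.55 ± 0.63 (SE; limma unadjusted p = 0.0192, adjusted p = 0.232). CD79A stood at 1.22 ± 0.51 in this contrast (SE; limma adjusted p = 0.244), with the other lymphocyte markers near the lower end of the scale, and its part in these values was not tested. The lowest MYLIP value, in replicate 1, had local loss, and with such values left out the difference was -0.84 (limma unadjusted p = 0.116). With the neighbourhood of each value subtracted it was -0.30 (limma adjusted p = 0.634), and with the column sets as a block it was -0.26 (limma adjusted p = 1.00).

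APOC1 measured 15.37, 15.99 and 14.95 in Graphite 24 h, against a lowest value of 14.49, a median of 14.70 and a highest value of 15.07 in the controls. The fold change was 0.65 ± 0.30 (SE; limma unadjusted p = 0.0367, adjusted p = 0.290). Of the 3 exposed values 2 were above all controls, which was not counted over all genes either. Without replicate 2 the difference was 0.26, without replicate 3 it was 1.00, and with the column sets as a block it was 0.25. APOC1 was also the member with the lowest p in rCNT 24 h, at 0.53 ± 0.30 (SE; limma adjusted p = 0.910), in tCNT 24 h, at 0.41 ± 0.30 (SE; limma adjusted p = 1.00), and in Baytube 24 h, at 0.29 ± 0.30 (SE; limma adjusted p = 1.00). These 4 differences share the 24 h controls, whose mean of APOC1, 14.78 ± 0.23 (SD, n = 6), was below that of the 6 h controls, 15.19 ± 0.37 (SD, n = 6).

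LPCAT3, APOE or ABCA1 had the lowest p in the remaining groups. LPCAT3 led in Baytube 6 h at 0.39 ± 0.22, in SES 6 h at -0.30 ± 0.22 and in Fullerene 24 h at 0.17 ± 0.22 (SE; limma adjusted p = 1.00 in each). The size of these values depended on single samples, while their signs held as each sample was left out. In Baytube 6 h the difference was 0.16 without replicate 3 and 0.64 without replicate 1, in SES 6 h it was -0.078 without replicate 3, and in Fullerene 24 h it was 0.065 without replicate 2. APOE led in SES 24 h at 0.19 ± 0.11 and in rCNT 6 h at 0.12 ± 0.11 (SE; limma adjusted p = 1.00 in both), and ABCA1 in Fullerene 6 h at 0.38 ± 0.73 (SE; limma adjusted p = 0.899) and in tCNT 6 h, above. In Fullerene 6 h the sign of ABCA1 rested on single samples: without replicate 1 the difference was -0.20 and without replicate 2 it was -0.081.

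The receptor, the transporter ABCG1 and PLTP led no contrast. NR1H3 differed from control by -2.38 ± 1.99 to 1.07 ± 1.99 (SE; both limits at 24 h, for Graphite and Baytube). With values of local loss left out these 2 differences read 0.80 and 0.07. The limits were then -0.84 ± 0.74 in Fullerene 24 h and 1.44 ± 1.07 in rCNT 6 h (SE). ABCG1 differed by -0.60 ± 0.52 in SES 24 h to 0.31 ± 0.52 in rCNT 24 h (SE), and PLTP by -0.30 ± 0.48 in tCNT 6 h to 0.82 ± 0.48 in Graphite 24 h (SE). The lowest limma adjusted p among these 36 tests was 0.410, that of PLTP in Graphite 24 h.

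**Figure D3:**
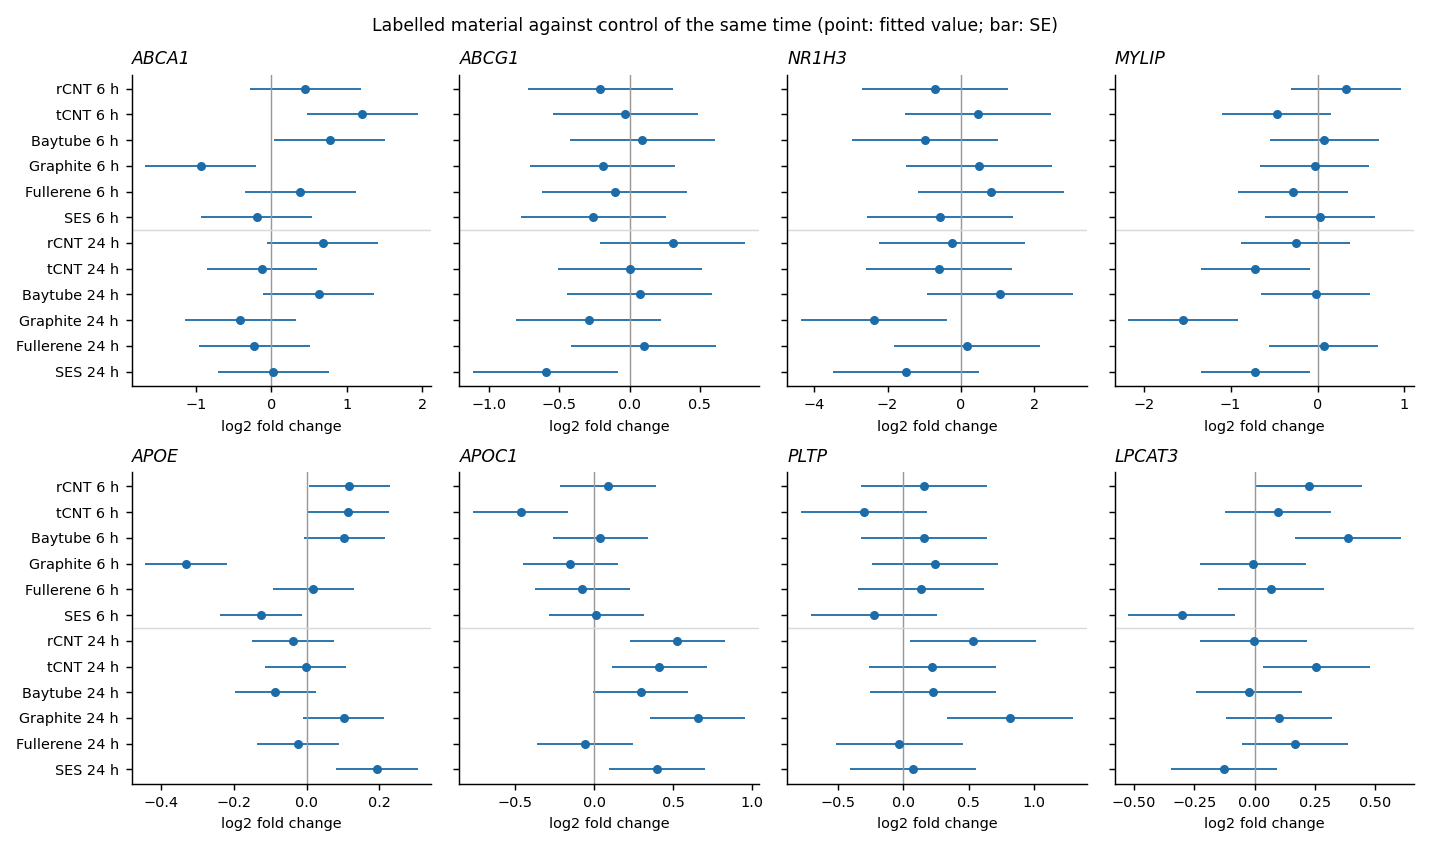
Fitted log2 fold change of each gene (x axis; points, with bars of 1 SE) for each labelled material against the control of the same time (y axis), 6 h above and 24 h below the grey line; x axes differ between panels. No point passed the adjusted threshold; the widest bars are those of NR1H3, and MYLIP in Graphite 24 h lies at -1.55.

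Pooled over materials, 0 of 8 members differed between exposed samples and controls at either time, with 3.09% of all genes at an unadjusted p under 0.05 at 6 h and 5.29% at 24 h (limma), and 0 of 8 members passed at that level. ABCA1 differed by 0.28 ± 0.49 at 6 h and 0.10 ± 0.49 at 24 h (SE; limma adjusted p = 0.966 and 0.974). Between the control times 0 of 8 members were called, where 0 of all genes were and 1.14% had an unadjusted p under 0.05 (limma); ABCA1 changed by 0.09 ± 0.60 (SE; limma adjusted p = 1.00). Of 48 tests of a material by time, 0 were called and 2 had an unadjusted p under 0.05 (limma): APOE for Graphite, above, and APOC1 for tCNT, at 0.88 ± 0.43 (SE; limma adjusted p = 1.00). The share of all genes at that level was highest for Graphite, 9.12%, and lowest for rCNT, 1.3%, with 4.3% for Fullerene, 2.97% for tCNT, 2.45% for Baytube and 1.61% for SES. No member was called between the 14 labelled groups either; the lowest unadjusted p there was that of APOE, 0.0470 (limma moderated F test; adjusted p = 1.00), with 2.77% of all genes under 0.05.

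Related lists gave the same count. The sterol synthesis list held 19 measured genes. In each of the 12 material contrasts 0 of the 19 rose and 0 fell at the adjusted threshold, and 15 of 228 tests had an unadjusted p under 0.05 (limma). In Graphite 6 h, 18 of the 19 lay above 0, with a median of 0.43 (0.31 with local loss left out) against 0.00 over all genes, while ABCA1 lay below 0. The 2 with an unadjusted p under 0.05 there were MVD, a decarboxylase of the mevalonate pathway, at 0.77 ± 0.32, and MVK, mevalonate kinase, at 0.53 ± 0.24 (SE; limma adjusted p = 1.00). In tCNT 6 h, where ABCA1 was highest, 5 of the 19 lay above 0 with a median of -0.23 (-0.37 with local loss left out), and 2 of them had an unadjusted p under 0.05, in opposite directions. HMGCS1, which makes HMG-CoA, stood at -0.97 ± 0.37 (SE; limma adjusted p = 0.683) and LSS, the lanosterol synthase, at 0.86 ± 0.38 (SE; limma adjusted p = 0.755). In 3 contrasts ABCA1 and the median of the list were both below 0. ABCA1 stood at -0.41 and the median at -0.17 in Graphite 24 h, at -0.12 and -0.20 in tCNT 24 h, and at -0.23 and -0.17 in Fullerene 24 h. With local loss left out these medians were 0.01, 0.04 and -0.17, and the contrasts of each time share their controls. The 12 other LXR pathway genes and the 12 genes of cholesterol uptake, storage and transport were called in 0 of the 12 contrasts, with 3 and 5 of 144 tests at an unadjusted p under 0.05 (limma).

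The members differed in how much of their variation belonged to the column sets. After each block of the table (columns 1 to 20, 21 to 40 and 41 to 48) was centred, the sets held 96.1% of the variance of NR1H3, 89.8% of MYLIP, 83.4% of PLTP, 74.7% of ABCG1 and 72.8% of APOC1, against a median of 82.8% over all genes. These 5 members were called between sets, as 92.0% of all genes were. LPCAT3 had 53.4%, APOE 40.9% and ABCA1 35.2%, and these 3 were not called (limma moderated F test; adjusted p = 0.110, 0.485 and 0.677). The sets take 42.2% of the degrees of freedom, so the shares of ABCA1 and APOE were below what unrelated columns would give. Only 0.436% of genes had a lower share than ABCA1.

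ABCA1 instead differed between columns of the same set. The difference between the column in the first block and its partner in the second, over 20 sets, had an SD of 1.54 log2 units and ran from -2.72 to 2.42. Only 0.672% of genes had a larger SD, and the median of all genes was 0.22. By label the partner columns carried different dyes, and no dye term entered the differences. Sets 1 to 12 were Cy5 minus Cy3. Sets 13 to 16 were Cy5 minus a488, and sets 17 to 20 were Cy3 minus a488. The partner columns share their place in the set, and their neighbourhoods around the ABCA1 feature differed by at most 0.23, with an SD of 0.11. The differences of ABCA1 correlated with those of its neighbourhood with r = 0.29. For other members this r was 0.55 (APOC1), -0.59 (PLTP), -0.58 (MYLIP), -0.46 (LPCAT3), -0.17 (ABCG1), -0.12 (NR1H3) and -0.04 (APOE). The part of the surface in the differences was not tested. The other ABCA1 feature gave like differences, with r = 0.90 (rho = 0.94) over the 20 sets. The lowest difference was in set 4 (Graphite 6 h replicate 1 minus rCNT 24 h replicate 2 by label), and the highest in set 20 (tCNT 6 h replicate 2 minus SES 24 h replicate 3 by label).

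Whether the members vary together was asked over the means of the 20 sets and over these 20 differences. Over set means 3 of 28 pairs were correlated at an adjusted p under 0.05 (permutation test, two-sided, adjusted over 28 pairs). They were ABCG1 with NR1H3 (r = 0.71, rho = 0.61, adjusted p = 0.0127 for r and 0.0778 for rho), ABCG1 with MYLIP (r = 0.69, rho = 0.66, adjusted p = 0.0127 and 0.0532) and NR1H3 with MYLIP (r = 0.61, rho = 0.46, adjusted p = 0.0302 and 0.234). These are the 3 members with local loss. With those values left out the 3 correlations were 0.15, 0.41 and 0.30, and 0 of 28 pairs passed. With each value's neighbourhood subtracted they were -0.07, -0.30 and -0.15, and again 0 pairs passed. Without the 2 sets farthest from the median the 3 correlations were 0.67, 0.73 and 0.64. For ABCA1 with NR1H3 r was -0.05 and rho 0.02 (permutation, adjusted p = 0.933 and 0.982).

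Within sets another pattern appeared, and 7 of 28 pairs passed (permutation test, two-sided, adjusted over 28 pairs, 20 differences). The share of all gene pairs that would pass was not counted, within sets or over set means, so neither count of pairs has a background. ABCA1 moved with NR1H3, with r = 0.77 and rho = 0.80 (adjusted p = 0.00084 for r and 0.00224 for rho). In set 4 the difference was -2.72 for ABCA1 and -2.04 for NR1H3, and in set 8 it was 1.46 and 1.67. In the 8 sets where NR1H3 had local loss its differences lay close to 0, and over the other 12 sets r was 0.86 (adjusted p = 0.00308). Without the 2 sets farthest from the median of ABCA1 the value over 20 sets was 0.79. In the 8 sets with a column in the last block, that column minus the mean of the other 2 gave r = 0.84 (exact permutation test, two-sided, unadjusted p = 0.0140) and rho = 0.71 (p = 0.0576).

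How common such values were differed by gene. A value of r at or above 0.7 within sets was reached with ABCA1 by 1.11% of all genes, with NR1H3 by 1.35%, with MYLIP by 1.42% and with ABCG1 by 1.58%, but with PLTP by 6.29% and with LPCAT3 by 6.92%. Over set means it was reached with MYLIP by 5.74%, with ABCG1 by 2.21% and with NR1H3 by 1.96%. Pairs with a lower r have no such share beside them.

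The other pairs included none with APOC1. ABCG1 with MYLIP (r = 0.72, rho = 0.58, adjusted p = 0.00364 and 0.0528), PLTP with LPCAT3 (r = 0.73, rho = 0.73, adjusted p = 0.00280 and 0.00700) and MYLIP with LPCAT3 (r = 0.66, rho = 0.66, adjusted p = 0.00959 and 0.0181) also passed over the differences by permutation. So did ABCG1 with APOE (r = 0.56), PLTP (r = 0.56) and LPCAT3 (r = 0.55), each with an adjusted p of 0.0460 for r and between 0.0894 and 0.160 for rho (permutation). Without the 2 farthest sets r was 0.53 for ABCG1 with MYLIP, 0.63 for PLTP with LPCAT3, 0.61 for MYLIP with LPCAT3, and 0.37, 0.54 and 0.41 for the last 3 pairs. With values of local loss left out 3 of the 28 pairs passed: ABCA1 with NR1H3, ABCG1 with MYLIP (r = 0.77) and PLTP with LPCAT3. The pair PLTP and LPCAT3 had r = -0.01 in the last block of 8 sets, and for ABCG1 with MYLIP it was 0.70 (exact permutation test, two-sided, unadjusted p = 0.983 and 0.0506). ABCA1 and ABCG1, the 2 transporters, had r = 0.51 and rho = 0.56 within sets (permutation, adjusted p = 0.0623 and 0.0528), and APOE with APOC1 had r = 0.30 and rho = 0.42 (permutation, adjusted p = 0.354 and 0.168). ABCG1 with NR1H3 had r = 0.46 and rho = 0.56 within sets (permutation, adjusted p = 0.1095 and 0.0528).

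**Figure D4:**
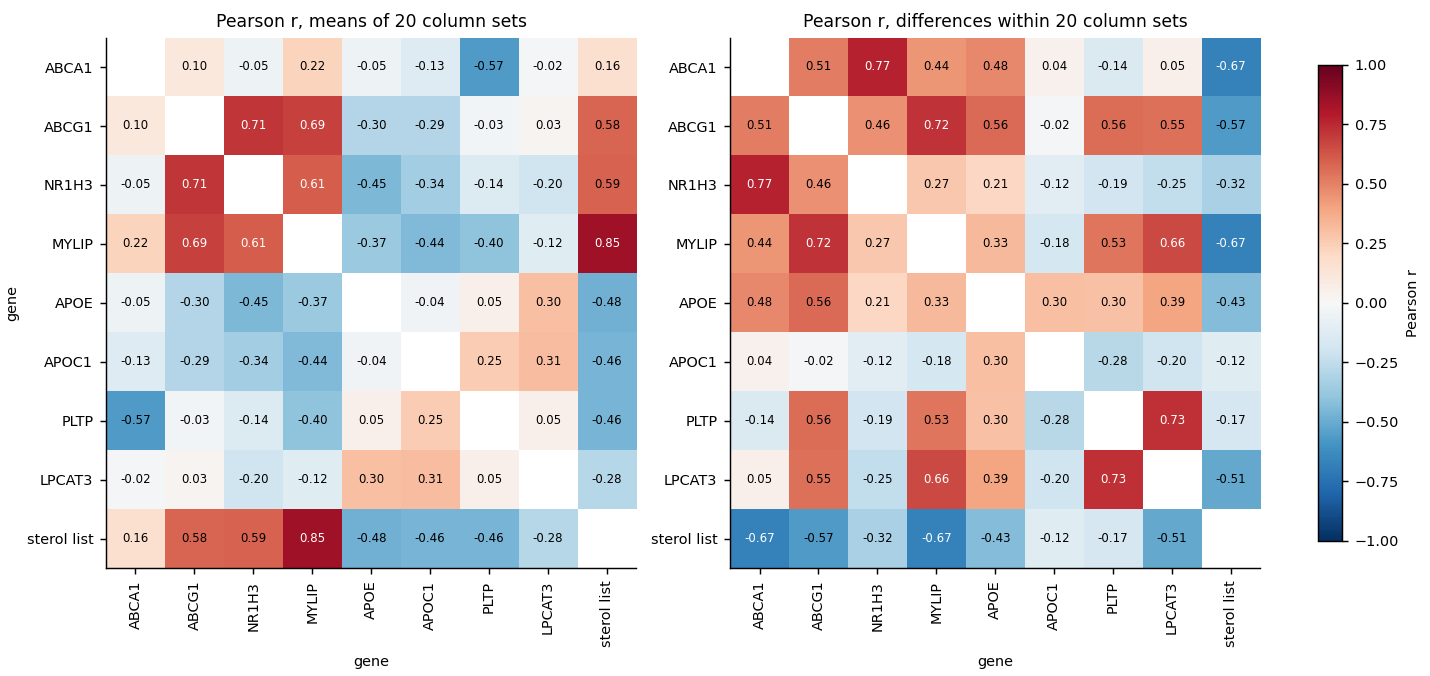
Pearson r between the 8 genes and with the mean of 19 sterol synthesis genes (last row and column), over the means of 20 column sets (left) and over 20 differences within sets (right); red is positive and blue negative, on a scale from -1 to 1. ABCA1 with NR1H3 is -0.05 on the left and 0.77 on the right, and MYLIP with the sterol list is 0.85 on the left and -0.67 on the right.

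Opposition to sterol synthesis was tested with the mean of the 19 measured genes. Over set means the list rose with MYLIP (r = 0.85, rho = 0.61), NR1H3 (r = 0.59, rho = 0.52) and ABCG1 (r = 0.58, rho = 0.42), and 3 of 8 members passed (permutation test, two-sided, adjusted p = 0.00016, 0.0176 and 0.0176 for r, and 0.0442, 0.0831 and 0.133 for rho). The list holds genes in the same zone of the array: IDI1 had local loss in 14 samples, FDPS in 9, NSDHL and SC5D in 8 each and CYP51A1 in 4. The list ran against APOE (r = -0.48, rho = -0.46), APOC1 (r = -0.46, rho = -0.32) and PLTP (r = -0.46, rho = -0.35), which did not pass (permutation test, two-sided, adjusted p = 0.0543 for r in each). For LPCAT3 r was -0.28, and for ABCA1 r was 0.16 and rho -0.072. With values of local loss left out the correlations of MYLIP, NR1H3 and ABCG1 were 0.24, 0.03 and -0.05, and 0 of 8 members passed. Without the 6 samples of a surface SD above 0.2, 0 of 8 passed as well.

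Within sets all 8 members had r below 0 with the list, and 4 of 8 passed (permutation test, two-sided, adjusted over 8). How many of all genes correlated with the list was not counted, within sets or over set means, so neither count has a background. For MYLIP, NR1H3, ABCG1 and, by r alone, ABCA1 the sign within sets was a turn from the set means. APOE, APOC1, PLTP and LPCAT3 were below 0 at both levels. The list fell as ABCA1 rose (r = -0.67, rho = -0.67, adjusted p = 0.00416 and 0.0128), as MYLIP rose (r = -0.67, rho = -0.60, adjusted p = 0.00416 and 0.0247), as ABCG1 rose (r = -0.57, rho = -0.54, adjusted p = 0.0247 and 0.0418) and as LPCAT3 rose (r = -0.51, rho = -0.52, adjusted p = 0.0403 and 0.0418). APOE had r = -0.43, NR1H3 -0.32, PLTP -0.17 and APOC1 -0.12, none of which passed. With values of local loss left out the same 4 passed, with r of -0.66 for ABCA1, -0.70 for MYLIP, -0.64 for ABCG1 and -0.54 for LPCAT3. Without the 2 sets farthest from the median, r was -0.63 for ABCA1, -0.68 for MYLIP, -0.58 for LPCAT3 and -0.37 for ABCG1, so the last rested in part on those sets. In the last block of 8 sets r was -0.92 and rho -0.98 for ABCA1 (exact permutation test, two-sided, unadjusted p = 0.000149 and 0.000397) and 0.07 for LPCAT3 (p = 0.864).

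Among single sterol genes IDI1, the isopentenyl diphosphate isomerase, lay furthest from ABCA1 within sets, with r = -0.88 over 20 differences and -0.97 over the 13 sets in which IDI1 had no local loss. In set 7 the difference was 2.28 for ABCA1 and -1.30 for IDI1, and in set 4 it was -2.72 and 0.91. HSD17B7, a reductase of late sterol synthesis, had r = -0.81, STARD4, a sterol carrier, -0.72, MVK -0.71, HMGCS1 -0.71 and CYP51A1, the lanosterol demethylase, -0.62. These are descriptions with no test. Of the 19 genes 16 lay below 0, against 50.1% of all genes, and 5 at or below -0.7, against 1.87% of all genes.

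Other genes of the list did not share it. SQLE, the squalene epoxidase, had r = 0.12 with ABCA1 within sets, LSS 0.33, SREBF2, which encodes SREBP2, 0.23, and INSIG1, which holds SREBP in the ER, -0.03. SQLE instead lay against LPCAT3, with r = -0.90, and so did MSMO1, a sterol demethylase, with r = -0.80. In the last block of 8 sets these values were -0.15 and 0.08, so LPCAT3 did not repeat there, whereas IDI1 with ABCA1 was -0.92 and HMGCS1 -0.90. The list was split for LPCAT3 within sets. Of the 19 genes 13 lay below 0, against 55.7% of all genes, and 3 at or below -0.7, against 6.36% of all genes. The other 6 lay above 0, with TM7SF2 at r = 0.71 and EBP at 0.62. In set 7 the HMGCS1 difference was -1.58 beside 2.28 for ABCA1, and in set 17 the SQLE difference was -2.03 beside 0.76 for LPCAT3.

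**Figure D5:**
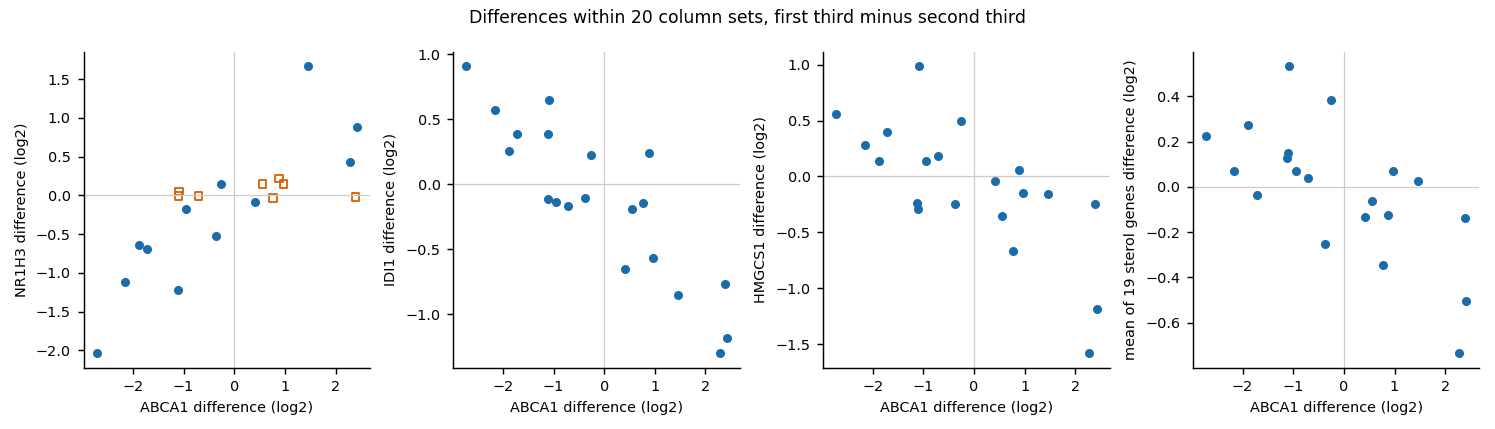
Differences within 20 column sets (first block minus second block, log2): ABCA1 on each x axis, and NR1H3, IDI1, HMGCS1 and the mean of 19 sterol synthesis genes on the y axes; each point is 1 set, and open squares mark the 8 sets with local loss at NR1H3. NR1H3 rises with ABCA1 (r = 0.77), while IDI1 (r = -0.88), HMGCS1 (r = -0.71) and the list mean (r = -0.67) fall.

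Further LXR and transport genes were set beside ABCA1 over the same differences, as descriptions. Of the 12 other LXR pathway genes 8 lay below 0, with a median r of -0.18, and of the 12 genes of cholesterol uptake, storage and transport 8 did, with a median of -0.32, against 50.1% of all genes. The genes named next were chosen after their values were seen. SMPDL3A, a secreted phosphodiesterase and LXR target, had r = 0.78, CH25H, which makes 25-hydroxycholesterol, 0.71, and SOAT1, which esterifies cholesterol for storage, 0.70. In the last block of 8 sets these were 0.75, 0.83 and 0.30. SREBF1, an LXR target that drives fatty acid synthesis, had 0.45, and its downstream gene SCD had -0.10. RXRA, the partner of LXR, had -0.68 and CES1, a carboxylesterase, -0.60. FASN, the fatty acid synthase and also an LXR target, had -0.36, APOC2, an apolipoprotein, -0.43 and PPARG, a nuclear receptor of lipid uptake, -0.50. CH25H also lay close to NR1H3, with r = 0.81 over 20 sets and 0.93 over the 12 without local loss. For NR1H3 and IDI1 the value was -0.74 within sets but 0.78 over set means, where both were affected by local loss.

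The genes most like each member over the 48 samples, after centring of the blocks, were named by rank. For ABCA1 they were EPB41L3 (r = 0.81), SYTL3 (0.79), COL8A2 (0.76), CXCR4 (0.75) and JAM2 (0.74), which lie 17 to 259 rows from it on the array. For APOE no gene reached 0.6, and IGFLR1 (0.51), POMC (0.50), HMGB3P22 (0.49), SIDT2 (0.49) and ARSA (0.49) lie 131 to 299 rows away.
For the members with local loss most of these genes lay near them. The genes most like NR1H3 were DHX58 (r = 0.98), AQR (0.98), RPF1 (0.97), UBL7 (0.97) and SPIDR (0.97), all within 11 rows and 1 column of it. For ABCG1 they were MATN2 (0.90), KLHDC8B (0.88) and PSMC3IP (0.87), within 2 rows and 7 columns, KLHL24 (0.83), 10 rows away, and PRR11 (0.83), 58 rows away. MYLIP was most like ZNF451 (0.92), SUPT7L (0.92), SLC38A2 (0.92) and UBE2J1 (0.91), within 16 rows and 17 columns, and RNF138 (0.91), 61 rows away.
The members without local loss were mixed. PLTP was most like ATG9A (r = 0.88), in its own row, and then CLN6 (0.87), AP1G2 (0.86), SUOX (0.84) and TMCO4 (0.84), 14 to 40 rows away. For APOC1 they were PTGES3 (0.71), FRA10AC1 (0.71), ZNF69 (0.69), ZNF839 (0.67) and ANP32CP (0.67), of which FRA10AC1 was 1 row away and the others 27 to 156. LPCAT3 was most like CTBP2 (0.80), HLA-DRB3 (0.78) and LGALS12 (0.77), 13 to 20 rows away, and PLPP7 (0.78) and DMRTA2 (0.76), 333 and 268 rows away.
Over the 20 set means the genes most like ABCA1 were EPB41L3 (r = 0.79), DUSP16 (0.78), COL8A2 (0.76), P4HA2 (0.72) and EPOP (0.72), and those most like NR1H3 were DHX58 (0.99), AQR (0.98), UBL7 (0.98), SPIDR (0.98) and PMS2 (0.98). For ABCG1 they were MATN2 (0.95), KLHDC8B (0.92), PSMC3IP (0.90), ABHD14A (0.88) and ALPK3 (0.88), and for MYLIP SUPT7L (0.96), UBE2J1 (0.96), MAP1LC3B (0.96), ZNF451 (0.95) and MCEE (0.95). For APOE they were HINT3 (0.79), BTBD6 (0.74), LINC01194 (0.70), HMGB3P22 (0.70) and KLHL33 (0.69), and for APOC1 FRA10AC1 (0.83), LY6G6E (0.82), ZNF839 (0.80), ANTXR1 (0.80) and EIF1B-AS1 (0.79). PLTP led with ATG9A (0.94), RNPS1 (0.88), SUOX (0.88), AP1G2 (0.88) and TMCO4 (0.87), and LPCAT3 with CTBP2 (0.82), PLPP7 (0.81), MR1 (0.76), CES1 (0.76) and FOXN4 (0.75). These points share arrays and surface, and no p is given.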

How the data were processed

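Gene expression was measured by microarray in 48 THP-1 samples. The authors deposited log2 values made with R 2.3 and limma, per the submitters' processing notes. How background was corrected and arrays were normalized: not given in the sources used here. Samples were grouped by their labels, and 0 columns belonged to no sample. Symbols came from the platform annotation, updated through RefSeq. The feature with the highest mean stood for each gene. The members and lists were chosen with earlier results of these data known. No 2 samples held identical values.

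limma 3.58.1 in R 4.3.3 fitted all 48 samples, 14 groups and dye as a fixed term (32 residual degrees of freedom), with Benjamini-Hochberg adjustment within each contrast at 0.05. Correlations used 100000 permutations in Python 3.11.15. Named genes were all members, list genes past the threshold, the extremes of the sterol list, the 5 genes most like each member, and per contrast the member with the lowest p; SMPDL3A, CH25H, SOAT1, SREBF1, SCD, RXRA, CES1, FASN, APOC2, PPARG, CD14, CD79A, MVD in Graphite 6 h, MVK there, HMGCS1 and LSS in tCNT 6 h and the single sterol genes beyond the extremes were chosen after their values were seen. Row width, neighbourhoods and differences within sets were chosen after seeing the data. Scripts were tested on simulated data.

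Title numbers could pair exposed samples with controls. Deviations from group means of same-numbered samples correlated with a mean of 0.026 over 36 pairs, from -0.43 to 0.67, and 15 of the 36 exceeded 0.1. By the letter of the sample code the mean was 0.056 over 72 pairs, with 36 above 0.1. By dye it was 0.055 over 72 pairs, with 34 above 0.1. The column sets cut across these pairs, so the check cannot decide whether a pairing exists. The numbers were not used as pairs.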

Additional observations from a re-analysis of the deposited data

Results flagged for a closer look

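Of 16 sets of 6 control values (8 genes at 2 times), 2 held a sample far from the other 5, where chance flags about 1 in 20. Both were control 6 h replicate 5. MYLIP was 7.08 there and between 9.41 and 10.58 in the other 5, and its neighbourhood stood at -2.63. PLTP was 11.27 there and between 9.37 and 9.85 in the others, and its neighbourhood stood at 0.96. The surface SD of this sample was 0.52. The part of the surface in these values was not tested.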

How the results depend on the processing

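Counts of called members stayed at 0 for materials, pooled exposure, control time, material by time and the 14 labelled groups under the alternative runs that covered them all: dye left out or replaced by table blocks, slide, array or column set terms, other normalizations and filters, surface handling, and each sample left out. With the title number or the letter of the sample code as a replicate block, 0 members were called in each of these, as without it. With the block by title number the count for material against control was 0. Members called between column sets were 5, and 4 with the neighbourhood subtracted.

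The correlations over set means changed with the handling of the array surface. Some of these runs also left out samples or values, and the part of the surface was not tested. Correlated pairs of members, 3 in the design as planned, numbered 0 with the surface component removed, 0 without the 6 samples of a surface SD above 0.2, 0 with local loss left out, 0 with the neighbourhood subtracted, 7 over differences within sets and 0 over the last block (8 sets). Members correlated with the sterol list, 3 as planned, numbered 5 with the mean of all features, 1 with the surface removed, 0 without those 6 samples, 0 with local loss left out, 0 with the neighbourhood subtracted and 1 over the last block. Fewer sets entered the last block.

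Signs turned as follows. ABCA1 with the sterol list (r = 0.16 over set means) was -0.21 without the 6 samples, -0.033 without the 2 farthest sets, -0.38 with local loss left out, -0.32 with the neighbourhood subtracted, -0.67 and -0.66 within sets (all values, and local loss left out) and -0.92 over the last block. ABCG1 with the list was -0.05, -0.19, -0.57, -0.64 and -0.30 under the last 5 of these, in that order. NR1H3 was -0.43 with the neighbourhood subtracted, -0.32 and -0.42 within sets and -0.65 over the last block, and MYLIP -0.0403, -0.67, -0.70 and -0.67. ABCA1 with NR1H3 (-0.05) was 0.0754, 0.77, 0.86 and 0.84 under the same 4. With the neighbourhood subtracted, ABCG1 with NR1H3 was -0.0677, ABCG1 with MYLIP -0.30 and NR1H3 with MYLIP -0.15. PLTP with LPCAT3 (0.05) was -0.0158 without the 6 samples, -0.0212 after quantile normalization and -0.0101 over the last block.

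Among fold changes, APOC1 in tCNT 24 h was -0.0645 with column sets as a block, and ABCA1 in Fullerene 6 h was -0.32 without the 6 samples and from -0.20 to 1.44 as each sample was left out. The cause was not tested. MYLIP in Graphite 24 h ranged from -1.96 to -0.84 as each sample was left out. Values near 16 (APOE) or near 6 (ABCG1) are limited by the scale.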
